A study of Mus musculus with 10 samples.

Results

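The genes described here encode the proteins of the cytosolic ribosome. They were chosen by name, as protein-coding genes whose symbol starts with Rpl or Rps and a digit, or is Rplp0, Rplp1 or Rplp2, with the Rps6k kinases, Rps13, Rps3a1 and Rpl34 left out. A member also needed a deposited value of at least 1 in at least 2 of the 10 libraries. Of 88 symbols that matched the name, 84 passed this minimum, among 15712 genes that passed it and 45195 gene IDs in all. By the start of their symbols, 52 members were counted as large-subunit genes (Rpl) and 32 as small-subunit genes (Rps). Of the 84, 73 are the main gene of a ribosomal protein and 9 are paralogs or gene copies annotated as protein coding. The other 2, Rpl7l1 and Rps19bp1, carry the name and are in the Rpl and Rps counts but are not ribosomal subunits. The 4 symbols below the minimum were Rpl10l, Rpl36-ps4, Rpl36a-ps1 and Rpl9-ps1.

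RNA was taken from neurites, the axons and dendrites that cortical neurons of E16.5 mouse embryos (C57BL/6 background) grew through the 3 µm pores of a membrane. Knockout (KO) neurons came from Cpeb1 flox/flox embryos and wild-type (WT) neurons from C57BL/6 embryos. Every culture, WT included, received AAV2 with Cre under the CAG promoter at plating. The labels call this promoter ubiquitous, and in which cells of the cultures Cre acted was not measured. The 4 groups were KO injured (n = 2), KO naive (n = 2), WT injured (n = 3) and WT naive (n = 3). Injured neurites were severed below the membrane on day 7, and what had regrown was lysed 24 hours later, on day 8. Naive neurites were never cut and were lysed at the same culture age, so that injury and the age of the neurite itself cannot be told apart. The labels do not say whether replicates are separate cultures, and p-values then measure the spread between these libraries only. Naive and injured neurites of each genotype were compared, the genotypes were compared within each state, and the interaction asked whether the injury difference in KO differed from that in WT.

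A ribosome joins a small subunit, which decodes the mRNA, to a large subunit, which forms the peptide bond. The mRNAs of its proteins are among the most abundant in most cells and typically begin with a terminal oligopyrimidine (TOP) tract, a cytosine followed by an unbroken run of pyrimidines, through which mTOR and LARP1 control their translation. Ribosomal protein mRNAs are also well known among the transcripts carried into axons and dendrites, far from the nucleolus where ribosomes are assembled. Cpeb1, the gene deleted here, encodes a protein that binds mRNAs in their 3' untranslated region and regulates polyadenylation and translation.

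Pyrimidine runs that may form a TOP tract can be looked for in the genome around the annotated start of these genes. The sequences printed are 30 bases long, from 10 bases before the RefSeq start (GRCm38.p6) to 20 bases from it, on the strand of the gene, with the longest cytosine-started pyrimidine run of at least 5 bases in capitals. Rps27 and its paralog Rps27l are set side by side because they differ in the results below. Rpl12 is shown because it is the other gene that passed a test. The rest show a run that is long or, in Rpl38, starts at the annotated first base. They lie at chr3:90213629-90213658 (minus strand, Rps27), chr9:66946076-66946105 and chr9:66946403-66946432 (plus strand, the annotated starts of Rps27l), chr2:32961702-32961731 (plus strand, Rpl12), chr4:86857348-86857377 (minus strand, Rps6), chr2:39005112-39005141 (minus strand, Rpl35), chr14:18270967-18270996 (minus strand, Rpl15) and chr11:114668570-114668599 (plus strand, Rpl38).
Rps27: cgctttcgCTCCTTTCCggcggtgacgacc
Rps27l, upstream start: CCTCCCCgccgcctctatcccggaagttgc
Rps27l, downstream start: gggcttcagggtcactaacgggcctcgcag
Rpl12: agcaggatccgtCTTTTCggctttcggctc
Rps6: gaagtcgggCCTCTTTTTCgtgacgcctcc
Rpl35: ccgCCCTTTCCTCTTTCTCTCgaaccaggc
Rpl15: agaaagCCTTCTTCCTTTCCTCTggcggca
Rpl38: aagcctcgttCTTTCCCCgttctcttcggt
In Rps27 the run spans the annotated start, in Rpl35 it is 18 bases long, and at the downstream start of Rps27l there is none in the window. At the upstream start of Rps27l the 7 capitals begin at the window's edge and lie wholly before the annotated start. In Rpl12 the run begins at base 3 of the annotated transcript. Neither is a run at the annotated first base.

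RefSeq start windows were matched to 61 of the 84 members, with 72 windows. A run of at least 7 bases that starts with C and goes on with C or T was searched from 10 bases before to 50 bases after the start, on the strand of the gene and on the opposite strand, and overlapping runs were counted once. Such a run lay on the strand of the gene in 50 of the 72 windows (69.4%), against 8243 of 32851 windows of all genes (25.1%). On the opposite strand the shares were 12.5% of the member windows and 30.1% of all windows. These are matches of letters, not measured transcript ends.

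Ribosomal protein mRNAs were among the most abundant transcripts of these neurites in all 4 groups. Levels are given as deposited FPKM, a fragment measure scaled by transcript length and library size. Being per length, it can be compared between genes, within the limits for near-identical and short copies given below. Over the 10 libraries, the members' mean levels had a median of 606 FPKM, with quartiles of 396 and 1036 FPKM, against a median of 7.73 FPKM over all 15712 genes. Of the 84 members, 76 lay at or above the 95th percentile of those genes, and 80 had a value of at least 1 in all 10 libraries. The median level was 735 FPKM for small-subunit genes and 563 FPKM for large-subunit genes. The members together made up 9.82% ± 0.0135 of the summed protein-coding value in KO injured neurites (SD, n = 2) and 10.2% ± 1.27 in KO naive neurites (SD, n = 2). In WT they made up 10.9% ± 1.21 in injured neurites (SD, n = 3) and 9.33% ± 0.324 in naive neurites (SD, n = 3).

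The highest member was Rpl41, which encodes the smallest protein of the large subunit, at a mean of 2388 FPKM. It measured 2150.0 and 1985 FPKM in KO injured, 3091 and 2190.5 in KO naive, 2132, 2031 and 3542 in WT injured, and 2218, 1913 and 2626 in WT naive neurites. The groups overlapped widely, and the highest value of each state came from 1 library, the third WT injured and the first KO naive one. Rplp1, a protein of the acidic stalk that recruits elongation factors, followed at 1881 FPKM. Its partners Rplp0 and Rplp2 averaged 1422 and 1030.1 FPKM. The next were the small-subunit genes Rps27 (1784 FPKM), Rps2 (1692 FPKM), whose protein lies at the mRNA entrance, and Rps29 (1636 FPKM). At the other end were Rpl39l, Rpl9-ps6 and Rpl3l, with means of 0.477, 0.575 and 0.613 FPKM. Rpl39l and Rpl3l are the testis and the striated-muscle paralogs of Rpl39 (408 FPKM) and Rpl3 (798 FPKM), and neither reached 5 FPKM in a library. Rpl7l1, a protein named for its likeness to Rpl7 that acts in ribosome assembly, averaged 39.2 FPKM against 585 FPKM for Rpl7.

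**Figure D1:**
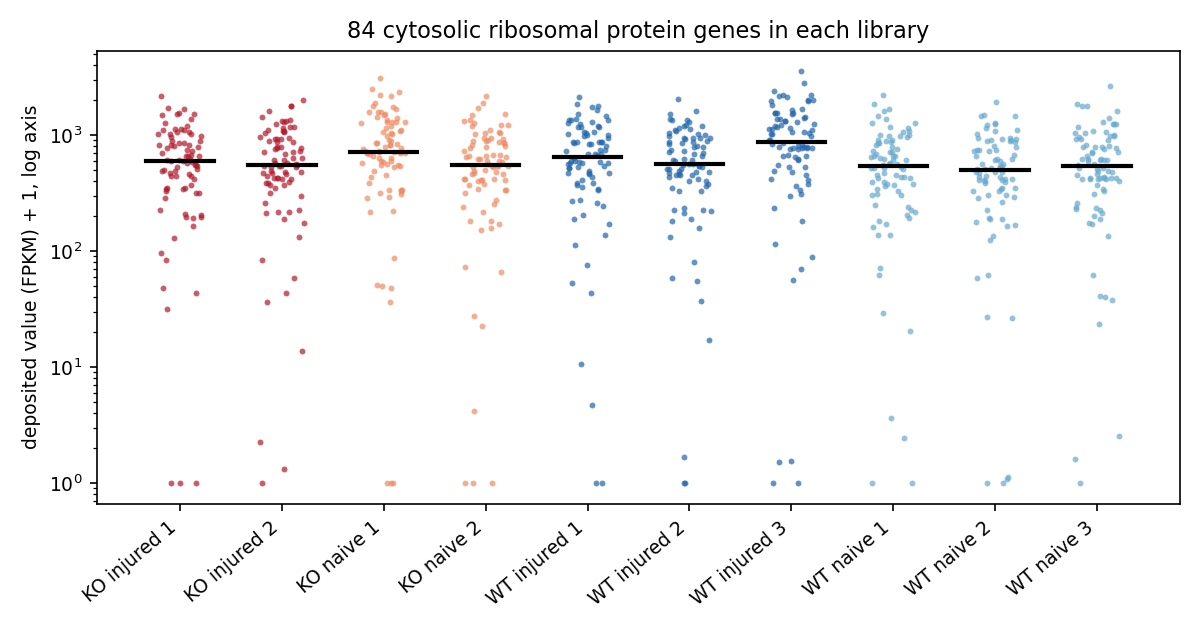
Deposited value plus 1 (FPKM, log axis) of the 84 cytosolic ribosomal protein genes in each of the 10 libraries; each point is a gene and the black bar is the median of the library. Most members lie within 1 band of high values in every library, with Rpl39l, Rpl3l, Rpl9-ps6 and Rps12 far below it.

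Rps12 was the main exception among the core subunits, at a mean of 17.5 FPKM. Its copies Rps12l1 and Rps12-ps3, whose transcripts are 100% identical to that of Rps12 over 399 and 494 bases, had means of 487 and 235 FPKM. The value of Rps12 itself was 47.5 and 12.9 FPKM in KO injured, 49.5 and 0 in KO naive, 9.63, 16.1 and 0 in WT injured, and 0, 0.072 and 39.3 in WT naive neurites. Within 3 of the 4 groups it ranged from near 0 to over 16 FPKM. The sum over the gene and its copies was far steadier, at 669 and 647 FPKM in KO injured, 962 and 802 in KO naive, 599, 637 and 1308 in WT injured, and 593, 535 and 676 in WT naive neurites. Short reads cannot tell such copies apart, so the value of each depends on how the quantification divided reads among them.

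The same held for other members. A gene or pseudogene copy with at least 95% identity was found among the genes tested for 51 of the 81 families into which the members fall, and in 12 families the main gene held under 50% of the summed value. Rps12 held 2.36% of its family's sum, Rpl5 12.4%, Rpl27a 16.6%, Rpl27 21.5%, Rpl10 28.4% and Rps29 43.7%. Rpl5, which with Rpl11 binds Mdm2 when ribosome assembly fails, averaged 59.2 FPKM, and its copy Gm15500, identical over 1018 bases, averaged 419 FPKM. Rps29 averaged 1636 FPKM, and Gm14303, identical over 171 bases, averaged 2107 FPKM. Taken alone, the 73 core genes spanned 17.5 to 2388 FPKM, a 137-fold range, with an SD of 1.203 on the log2 scale. Summed with their copies they spanned 211 to 3743 FPKM, a 17.7-fold range, with an SD of 0.72 on the log2 scale. The highest sum was that of Rps29 with Gm14303. FPKM is per length, so a fragment adds more to a short copy. Gm14303 is 171 nt long, and Gm28900, a copy of Rpl21 at 830 FPKM, is 156 nt long. These sums and percentages are therefore not shares of reads.

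**Figure D2:**
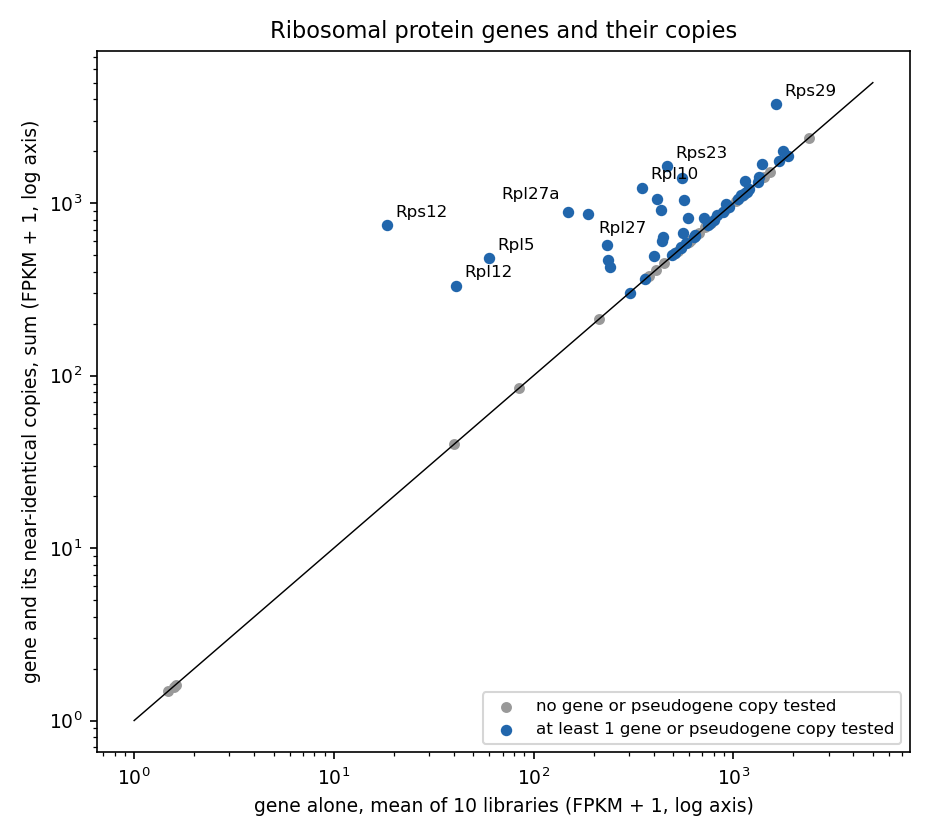
Mean over 10 libraries of the main gene of each of the 81 families alone (x axis, FPKM + 1, log axis) against the sum of the gene and its near-identical copies (y axis, FPKM + 1, log axis); the line marks equal values. Rps12, Rpl12, Rpl5 and Rpl27a lie far above the line, at 17.5, 39.8, 59.2 and 148 FPKM alone against 743, 332, 478 and 890 FPKM summed.

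As deposited, most members moved together from library to library. Over the 10 libraries, the log2 level of a member correlated with the median member with a median Pearson r of 0.88, against 0.04 for genes tested that are not members; 36 members reached an r of 0.9 and 6 were below 0.5. Those 6 were Rpl39l, Rpl9-ps6, Rps12, Rpl3l, Rpl5 and Rps29. The median is formed from these same members, so their r is partly built in, and the other genes were mostly at far lower levels. The members' median also followed the inferred library factor described below, with an r of 0.87 on the log2 scale. With the factor taken out of the median this r was 0.51. All libraries share the deposited scaling, so these r values are descriptions. The genes outside the family with the highest r to the members' median were Litaf (0.97), the pseudogene Tpt1-ps3 (0.96) and Rack1 (0.96), a scaffold protein of the small subunit that the naming rule does not take.

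The median member value was 597 and 555 FPKM in KO injured, 719 and 551 in KO naive, 648, 560 and 876 in WT injured, and 539, 494 and 539 in WT naive neurites. The third WT injured library was the highest and the first KO naive library the next, while the WT naive libraries were the 3 lowest. Each library's values are whole steps of 0.01 times a factor of its own, 0.901 to 1.23, which was inferred from the values, and these 2 libraries have the highest factors (1.23 and 1.11). With the factor taken out, the medians were 663 and 602 FPKM in KO injured, 650.3 and 558 in KO naive, 645, 544 and 711 in WT injured, and 552, 548 and 547 in WT naive neurites. The share of each library's total in ribosomal RNA was also highest in WT injured neurites, with 12.1% and 15.1% in KO injured, 16.9% and 12.6% in KO naive, 19.9%, 23.3% and 28.2% in WT injured, and 14.9%, 11.1% and 16.4% in WT naive neurites. The third WT injured library also had the fewest genes at 1 FPKM or more (12231, others 12495 to 13143). Its mean Spearman correlation with the other libraries was the lowest (0.809, others 0.842 to 0.876). Over the 10 libraries, the members' log2 median had an r of 0.73 with the ribosomal RNA share and -0.65 with that number of genes. The part of these library traits in the members' values was not tested.

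**Figure D3:**
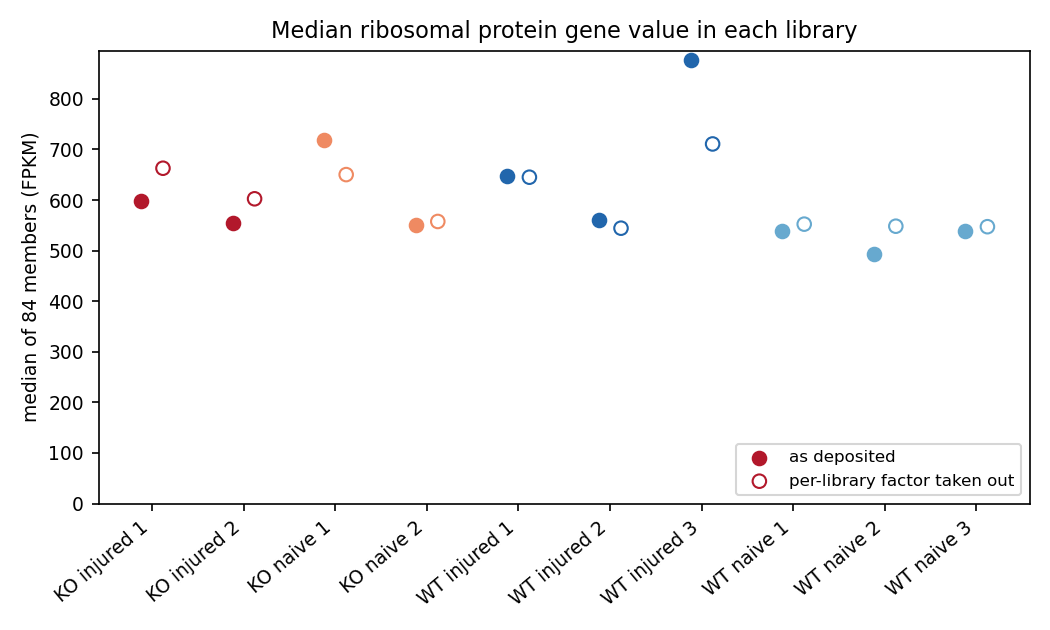
Median of the 84 members in each library (FPKM), as deposited (filled) and with the library's inferred factor taken out (open). The third WT injured library stands at 876 FPKM as deposited and 711 FPKM with the factor out; the WT naive libraries stand at 494 to 539 FPKM as deposited.

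Cpeb1 itself measured 1.14 and 3.15 FPKM in KO injured, 5.97 and 0.356 in KO naive, 1.65, 13.8 and 22.6 in WT injured, and 7.16, 5.96 and 5.86 in WT naive neurites. The library labelled KO naive 1 thus lay within the WT naive range, and the library labelled WT injured 1 within the KO range, and directions drawn from these labels carry that limit. Neuron markers were present in every library. Summed over 10 genes, astrocyte markers reached 4236 to 4291 FPKM in KO injured, 3477 to 4521 in KO naive, 2798 to 5548 in WT injured and 2512 to 3123 in WT naive neurites. Of 6 microglial genes listed, 3 reached the minimum value, and Cx3cr1 and Tmem119 were at 0 in every library. The microglial list summed to 0.288 to 3.52 FPKM in KO injured and 0 to 7.14 in KO naive neurites. In WT it summed to 0.01 to 1.61 FPKM in injured and 0 to 3.66 in naive neurites.

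Most of the family had slightly lower values in injured than in naive KO neurites, and no member passed the test. Of the 84 members, 16 (19.0%) had an injury fold change above 0, against 42% of all genes tested, and the median of all 84 was -0.15, against -0.09 over all genes tested. No member passed in limma (smallest adjusted p = 0.848), where 0.0573% of all genes were called. At an unadjusted p under 0.05 there were 2 members (2.38%), Rpl29 and Rpl27a, both lower, against 5.73% of all genes. In 18 members (21.4%) both KO injured libraries lay below both KO naive ones, against 22.1% of all genes, and in 1 member (1.19%) above, against 13.5%. The sign of the median depended on scaling and on 1 library, being 0.05 with the inferred factor out, 0.09 with libraries scaled to equal totals without ribosomal RNA, 0.03 with quantile normalization, and 0.06 without KO naive 1. Without KO naive 2 it was -0.39.

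Rpl29, a small protein of the large subunit, measured 546 and 532 FPKM in KO injured and 860.01 and 651 in KO naive neurites, which did not overlap. Its log2 fold change was -0.47 ± 0.20 (limma adjusted p = 0.848). Rps24, mutated in some human Diamond-Blackfan anemia, stood at -0.43 ± 0.23 (limma adjusted p = 0.933) and Rps27a at -0.38 ± 0.23 (limma adjusted p = 0.937). At the other end Rpl18, Rpl19, Rpl3, which helps form the peptidyl transferase centre, and Rpl4, which lines the exit tunnel, were at 0.11 ± 0.24, 0.08 ± 0.23, 0.06 ± 0.20 and 0.05 ± 0.19 (limma adjusted p = 0.998, 1, 1 and 1).

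Nearly the whole family had higher values in injured than in naive WT neurites, and for 2 genes the difference passed the test. Of the 84 members, 80 (95.2%) had a log2 fold change above 0, against 50.6% of all genes tested, and the median was 0.41, against 0.01 over all genes tested. At an adjusted p under 0.05 in limma, 2 members rose and none fell, 2.38% of the members, where 0.948% of all genes tested were called and 0.7% were called higher. Without adjustment 36 members (42.9%) had p under 0.05, against 13.9% of all genes. This count was 23 with the inferred factor out, 26 with only the WT groups in the fit and 3 with no mean-variance trend. It rose to 49 with the replicate block and 54 without WT injured 2. The median was 0.23 with the factor out and 0.24 with quantile normalization. Set against the median of all genes in the same setting, it was 0.40 as deposited, 0.35 with the factor out and 0.27 with quantile normalization. In 37 members (44.0%) the 3 injured libraries all lay above the 3 naive ones, against 9.78% of all genes, and in no member did they all lie below, against 8.02%. The medians of the large and the small subunit were alike, at 0.41 and 0.42. Without the third injured library the median was 0.23, 19 members had p under 0.05 and none passed adjustment. Scaled to the members' own median, the difference of the family from itself is near 0 by construction and no member passed.

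**Figure D4:**
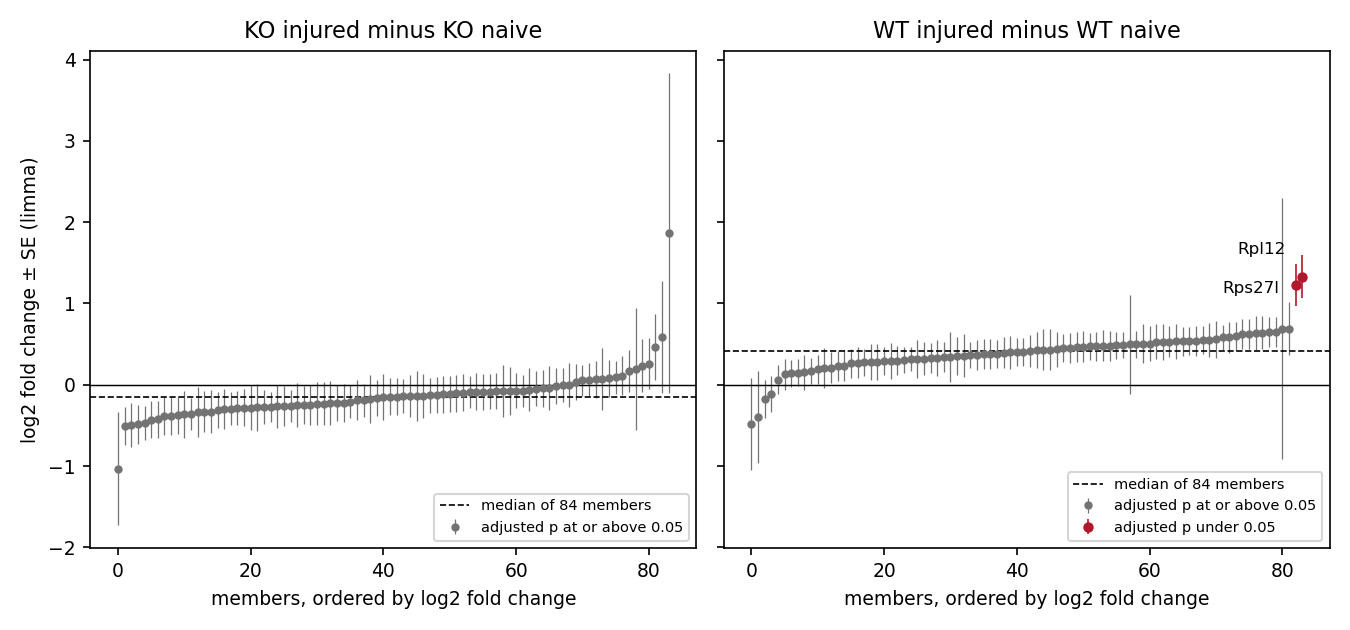
Injury log2 fold change ± SE (limma) of the 84 members, ordered by size, in KO (left) and WT (right); the dashed line is the members' median and red marks an adjusted p under 0.05. The median is -0.15 in KO and 0.41 in WT, where Rps27l and Rpl12 are marked; the wide bars belong to genes with values near 0 in some libraries, such as Rps12.

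The genes that passed were Rps27l and Rpl12. Rps27l (ENSMUSG00000036781, chr9:66946086-66949516, plus strand, mm10) encodes a close paralog of the small-subunit protein Rps27 and is a known target of p53. It measured 341 and 469 FPKM in KO injured, 336 and 332 in KO naive, 534, 328 and 790 in WT injured, and 204, 226 and 232 in WT naive neurites. All WT injured libraries lay above all WT naive ones, and the KO libraries of both states lay between the highest WT naive and the highest WT injured value. On the log2 scale the injury difference was 0.26 ± 0.31 in KO (SE, limma adjusted p = 0.984) and 1.23 ± 0.26 in WT (SE, limma adjusted p = 0.0435). Its interaction was -0.97 ± 0.41 (limma adjusted p = 0.791), so that a difference between the genotypes did not pass. Across 25 other settings its WT difference was 0.85 to 1.56, with an adjusted p of 0.00513 to 0.222, under 0.05 in 10 of them. With 1 library left out at a time it passed without WT injured 2 (limma adjusted p = 0.00513) and not without any of the other 9 (limma adjusted p = 0.071 to 0.186). Rps27l had no near-identical copy and shares no exon with another tested gene.

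Rps27, unlike its paralog, did not separate the WT groups. It measured 1514 and 1613 FPKM in KO injured, 2517 and 1901 in KO naive, 1796, 1368 and 2413 in WT injured, and 1456, 1467 and 1791 in WT naive neurites. Its KO injured libraries lay below the KO naive ones, and its WT groups overlapped. The log2 fold change of injury was -0.48 ± 0.24 in KO (limma adjusted p = 0.897) and 0.21 ± 0.20 in WT (limma adjusted p = 0.681). The value of Rps27l as a percentage of that of Rps27 does not depend on how libraries are scaled to each other. It was 22.5% and 29.1% in KO injured, 13.3% and 17.4% in KO naive, 29.7%, 24.0% and 32.7% in WT injured, and 14.0%, 15.4% and 13.0% in WT naive neurites. In both genotypes every injured library had a higher percentage than every naive one. How many other gene pairs separate in this way was not computed. The value of Rps27 also depends on how reads were divided with Rps27rt, identical over 307 bases and at a mean of 216 FPKM. Rps27l was also the single member whose KO injured libraries both lay above the KO naive ones.

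Rpl12 (ENSMUSG00000038900, chr2:32961559-32965345, plus strand, mm10), a protein at the base of the large subunit's stalk, measured 30.5 and 35.1 FPKM in KO injured, 35.4 and 21.7 in KO naive, 74.1, 54.6 and 69.4 in WT injured, and 28.3, 26.0 and 22.6 in WT naive neurites. The WT injured libraries stood above all 7 others. The log2 injury difference in WT was 1.33 ± 0.26 (SE, limma adjusted p = 0.0353), under 0.05 in 10 of 25 other settings (adjusted p = 0.0274 to 0.36). With 1 library left out at a time it passed without WT injured 2 or KO naive 2 (limma adjusted p = 0.0298 and 0.0473), and the other 8 gave 0.0503 to 0.142. Its near-identical pseudogene Gm10275, the same over 634 bases, held far more of the signal, with 224 and 267 FPKM in KO injured, 334 and 258 in KO naive, 292, 301 and 396 in WT injured, and 253, 254 and 321 in WT naive neurites. The WT groups of Gm10275 overlapped. Summed with its 3 copies, Rpl12 had a log2 difference of 0.38 ± 0.18 (limma adjusted p = 0.36), close to the median of the family. The part that the division of reads between these identical sequences has in the value of Rpl12 was not tested, and 5.17% of its exon bases are also shared with Lrsam1 and Snora65.

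**Figure D5:**
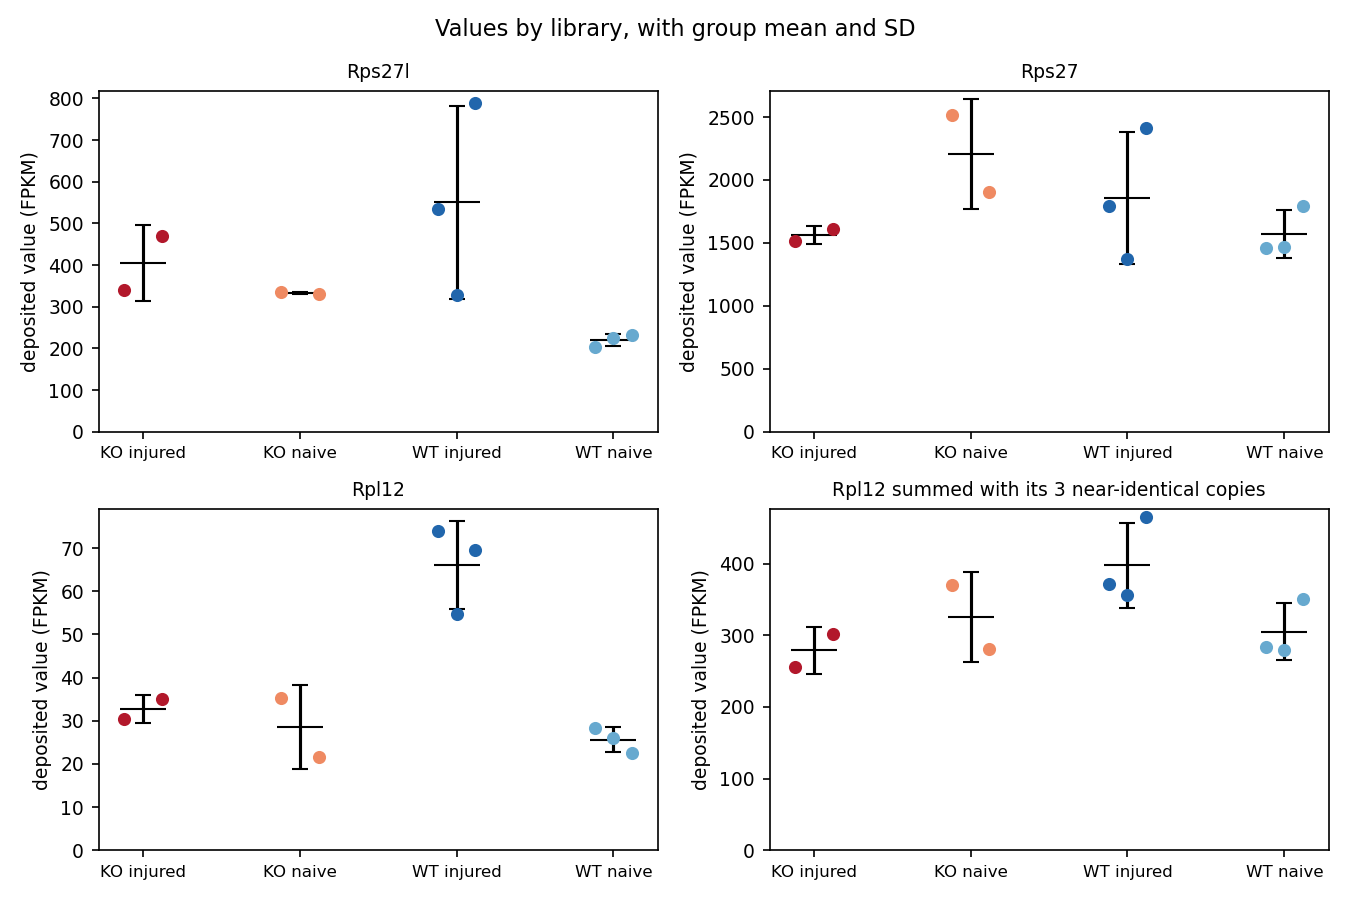
Deposited values (FPKM) of Rps27l, Rps27, Rpl12 and Rpl12 summed with its 3 near-identical copies in the 10 libraries; points are libraries, bars the group mean and SD (n = 2 for KO injured and KO naive, n = 3 for WT injured and WT naive). Rps27l and Rpl12 stood at 328 to 790 and 54.6 to 74.1 FPKM in WT injured neurites, above the 204 to 232 and 22.6 to 28.3 FPKM of WT naive neurites, while the groups overlapped in Rps27.

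Among members at or above the median level of the family, the largest WT injury differences that did not pass were in large-subunit genes. Rpl13a, which in human cells also acts outside the ribosome in the interferon-gamma response, measured 1341, 1215 and 1965 FPKM in WT injured and 868, 881 and 1088 in WT naive neurites. These WT groups did not overlap, and the log2 fold change was 0.65 ± 0.19 (limma adjusted p = 0.153). Rpl7a, Rpl8 and Rpl18, all of the large subunit, had differences of 0.62 ± 0.18, 0.59 ± 0.18 and 0.58 ± 0.19 (limma adjusted p = 0.165, 0.174 and 0.209), without overlap between the groups. Rps6, the small-subunit protein phosphorylated by S6 kinase, measured 874, 705 and 1022 FPKM in WT injured and 660.1, 542 and 567 in WT naive neurites, a log2 difference of 0.54 ± 0.17 (limma adjusted p = 0.19). Rpl11 and Rps4x were at 0.53 ± 0.21 and 0.49 ± 0.16 (limma adjusted p = 0.287 and 0.209). The ubiquitin fusion Rps27a, which yields a small-subunit protein and free ubiquitin, was at 0.47 ± 0.19 (limma adjusted p = 0.296). The stalk proteins Rplp0, Rplp1 and Rplp2 had smaller differences, of 0.16 ± 0.16, 0.32 ± 0.20 and 0.33 ± 0.18 (limma adjusted p = 0.694, 0.518 and 0.45). Rps29 and Rpl38 were the only members at this level with a fold change below 0, at -0.17 ± 0.23 and -0.11 ± 0.22 (limma adjusted p = 0.79 and 0.869). Rpl38 is known in mouse for its part in the translation of Hox mRNAs.

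The injury difference was lower in the shorter core genes of both genotypes. Ordered by coding length, the shortest 24 core genes (138 to 405 nt) had a median log2 fold change of -0.23 in KO, the middle 24 (405 to 576 nt) -0.21 and the longest 25 (582 to 1257 nt) -0.09. In WT the medians of the same genes were 0.31, 0.46 and 0.47. Over the 73 core genes the Spearman correlation of coding length with the injury difference was 0.38 in KO and 0.35 in WT, a description across genes that share libraries. For the 47 members with a pyrimidine run in the window searched around the start, the median injury difference was -0.14 in KO and 0.41 in WT. That of the 14 matched members without one was -0.11 in KO and 0.46 in WT.

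In naive neurites the family was higher in KO than in WT, again without a member that passed. The fold change was above 0 in 81 of 84 members (96.4%), against 55.4% of all genes, with a median of 0.30, against 0.06 over all genes. No member passed in limma (smallest adjusted p = 1), where 0.146% of all genes were called. At an unadjusted p under 0.05 there were 11 members (13.1%), all higher, against 3.76% of all genes. The count was 1 with quantile normalization, 2 with equal totals, 7 with the inferred factor out and 0 with no mean-variance trend. Other settings raised it, to 19 with only the groups compared in the fit, 29 without WT injured 3 and 41 with the replicate block. The median was 0.05 with quantile normalization (57 members above 0), 0.10 with equal totals (71 above 0) and 0.17 with the factor out. Set against the median of all genes, it was 0.23 as deposited and 0.05 with quantile normalization. With equal totals this was 0.19 and with the factor out 0.20. In 34 members (40.5%) both KO naive libraries lay above all WT naive ones, against 14.1% of all genes, and in none below, against 8.51%. Without KO naive 1, the library in which Cpeb1 was at the WT level, the median was 0.08 and 1 member had p under 0.05. Without KO naive 2 the median was 0.54.

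The largest of these differences at or above the median level were in Rps27a, Rpl35a, Rps16 and Rps27. Rps27a measured 1298 and 948 FPKM in KO naive and 760.3, 749 and 788 in WT naive neurites, without overlap, a log2 difference of 0.53 ± 0.21 (limma adjusted p = 1). Rpl35a, of the large subunit, measured 826 and 669 FPKM in KO naive and 519.9, 506 and 521 in WT naive neurites, also without overlap (0.53 ± 0.23, limma adjusted p = 1). Rps16 and Rps27, of the small subunit, were at 0.50 ± 0.21 and 0.48 ± 0.22 (limma adjusted p = 1 for both).

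In injured neurites the order was the other way round. The KO fold change was below 0 in 75 of 84 members and above 0 in 8 (9.52%), against 45.7% of all genes, with a median of -0.27, against -0.05 over all genes. No member passed in limma (smallest adjusted p = 0.281), where 0.261% of all genes were called. At an unadjusted p under 0.05 there were 10 members (11.9%), all lower, against 10.5% of all genes. The count was 5 with the inferred factor out or equal totals, 6 with the replicate block and 1 with no mean-variance trend. Without WT injured 2 it was 27. In 24 members (28.6%) both KO injured libraries lay below all WT injured ones, against 12.2% of all genes, and in none above, against 9.72%. Without WT injured 3 the median was -0.07, with the inferred factor out it was -0.02, with equal totals -0.11 and with quantile normalization -0.16. Scaling moved the median of all genes too. Relative to that median, the members' median was -0.22 as deposited and -0.14 with the factor out. It was -0.16 with equal totals or quantile normalization, and -0.04 without WT injured 3. Rpl12 had the smallest p, at -0.98 ± 0.30 (limma adjusted p = 0.281). Rpl13a measured 886 and 1032 FPKM in KO injured and 1341, 1215 and 1965 in WT injured neurites, without overlap (-0.62 ± 0.21, limma adjusted p = 0.328). Rpl7a and Rpl8 were at -0.44 ± 0.21 and -0.43 ± 0.20 (limma adjusted p = 0.481 for both). Rpl38 and Rps29 were at 0.19 ± 0.25 and 0.19 ± 0.26 (limma adjusted p = 0.816 and 0.826).

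The test of whether the injury difference itself differed between the genotypes is the interaction. It was below 0 in 81 of 84 members and above 0 in 3 (3.57%), against 43.2% above 0 of all genes, with a median of -0.59, against -0.13 over all genes. No member passed in limma (smallest adjusted p = 0.791), and 0% of all 15712 genes did. At an unadjusted p under 0.05 there were 32 members (38.1%), all below 0, against 6.23% of all genes. The count was 16 with median-ratio scaling, 8 with quantile normalization and 3 with equal totals. It was 0 with the inferred factor out and 1 with no mean-variance trend. Leaving out KO naive 1 alone, the library in which Cpeb1 was at the WT level, also gave 1. The count was 47 with the replicate block, 47 without WT injured 2 and 48 without KO naive 2. Among members at or above the median level, Rps27a, Rps26, Rpl26 and Rps14 had the most negative values, of -0.85 ± 0.30, -0.81 ± 0.35, -0.77 ± 0.26 and -0.76 ± 0.35 (limma adjusted p = 0.791, 0.791, 0.791 and 0.8). Rps29 was at 0.02 ± 0.37 (limma adjusted p = 0.996). Relative to the median of all genes, the members' median was -0.46 as deposited, -0.42 with median-ratio scaling, -0.39 with the inferred factor out or equal totals, and -0.25 with quantile normalization. Without both KO naive 1 and WT injured 3 it was -0.16, and 1 member then had an unadjusted p under 0.05.

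Among the other paralog pairs, both genes were high in that of Rpl22 and in that of Rpl36a. Rpl22l1, the paralog of Rpl22, averaged 302 FPKM against 211 FPKM for Rpl22, and exceeded it in all 10 libraries. As a percentage of Rpl22 it was 176% and 140.0% in KO injured, 155% and 155% in KO naive, 135%, 129% and 136% in WT injured, and 150.1%, 177% and 104% in WT naive neurites, and the groups of each genotype overlapped. Rpl36al and Rpl36a averaged 451 and 445 FPKM. Rpl36a has a copy, Rpl36a-ps2, identical over 321 bases and at a mean of 192 FPKM, and held 69.8% of the summed value. The levels and percentages of this pair thus depend on how reads were divided. As a percentage of Rpl36a, Rpl36al was 136% and 109% in KO injured, 93.3% and 102% in KO naive, 88.6%, 119.8% and 70.3% in WT injured, and 122%, 103% and 99.5% in WT naive neurites. This percentage was higher in both KO injured libraries than in both KO naive ones, and it overlapped between the WT groups. The values of Rpl36al itself overlapped between the KO groups.

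Genes around the ribosome were counted in the same fit, from lists written with earlier results of these data known. In KO injury no gene of these lists passed, and the medians were -0.12 for the TOP translation factors, -0.15 for the other TOP mRNAs, -0.04 for the other initiation factors, 0.07 for ribosome biogenesis, 0.05 for mitochondrial ribosomal proteins and -0.04 for the mTOR pathway. Of 13 translation factors known as TOP mRNAs, none passed in any comparison, and their median WT injury difference was 0.31. All 5 other TOP mRNAs listed (Npm1, Tpt1, Naca, Nap1l1 and Hnrnpa1) were above 0 in WT injury, with a median of 0.50, and none passed. Of 23 other initiation factors, Eif1, which monitors start codon choice, rose with injury in WT, with a log2 difference of 0.84 ± 0.14 (limma adjusted p = 0.0141). Of 30 ribosome biogenesis genes, Nop56, a core protein of the box C/D particles that guide methylation of ribosomal RNA, rose by 1.28 ± 0.24 in WT injury (limma adjusted p = 0.0272), and the list's median was 0.46. The 77 mitochondrial ribosomal protein genes tested had a median of 0.06 in WT injury and none passed. Of 20 genes of the mTOR to S6 kinase pathway none passed, with a median of 0.24. In both genotype comparisons and in the interaction, no gene of these lists passed. The interaction medians were -0.27 for the TOP translation factors, -0.65 for the other TOP mRNAs, -0.35 for the other initiation factors, -0.38 for ribosome biogenesis, -0.09 for mitochondrial ribosomal proteins and -0.19 for the mTOR pathway. For naive KO against naive WT the medians were 0.17 for the TOP translation factors, 0.35 for the other TOP mRNAs, 0.19 for the other initiation factors, 0.01 for ribosome biogenesis, 0.31 for mitochondrial ribosomal proteins (57 of 77 above 0) and -0.06 for the mTOR pathway. That of the mitochondrial genes lay beside the 0.30 of the cytosolic family. For injured KO against injured WT they were -0.07, -0.32, -0.19, -0.35, 0.21 and -0.29 for the lists in the same order. None of these medians was tested.

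Some markers of cells other than neurons rose with injury in WT. The median astrocyte marker had a log2 fold change of 0.38 in KO injury and 0.86 in WT injury, and of 10 such genes Sox9 rose in WT (1.87 ± 0.30, limma adjusted p = 0.0141). Of 8 radial glia and progenitor markers Vim rose in WT (1.88 ± 0.39, limma adjusted p = 0.0435). Their summed level was 231 to 438 FPKM in KO injured, 159.6 to 286 in KO naive, 400.2 to 739 in WT injured and 134 to 238 in WT naive neurites. The 7 oligodendrocyte lineage markers summed to 237 to 239.9 FPKM in KO injured, 114 to 207 in KO naive, 162 to 405 in WT injured and 158 to 176 in WT naive neurites, and none passed. RNAs of cell bodies and nuclei summed to 1817 to 3218 FPKM in KO injured, 2278 to 3169 in KO naive, 6514 to 7826 in WT injured and 2704 to 4125 in WT naive neurites. Of those 8 RNAs, 3 were above 0 in WT injury, with a median of -0.09, and Malat1 and Rn7sk rose (limma adjusted p = 0.0455 and 0.00176). Malat1 was also lower in KO injured than in WT injured neurites (-1.79 ± 0.29, limma adjusted p = 0.02). The 8 neuron markers summed to 3393 to 4399 FPKM in KO injured, 4497 to 4898 in KO naive, 2617 to 3418 in WT injured and 3854 to 4316 in WT naive neurites, and none passed. The part of these shifts in the ribosomal protein values was not tested. In such lysates, fewer cells or neurites of one kind and less RNA in each cannot be told apart.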

How the data were processed

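RNA-seq libraries (Smart-seq2 from 1 ng RNA, 14 and 11 PCR cycles, 500 pg cDNA, not stranded) were made from 10 neurite samples, per the labels' protocols. STAR 2.4.2a, RSEM 1.2.21 and the build mm10 are named in the submitters' processing notes. The values the authors deposited for 45195 Ensembl IDs were taken as FPKM, which rests on the values and is not stated. In every library 100% of values lay within 0.001 of whole steps of 0.01 times a library factor. Counts were not used, so depth gives no interval here. Overlapping genes and near-identical copies are not told apart. GENCODE M21 matched 44548 IDs.

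Groups came from the labels. Limma 3.58.1 (R 4.3.3) was run on log2(value + 1) for the 15712 genes that reached 1 FPKM in 2 or more libraries, with moderated variances that follow a trend on the mean. All 4 groups entered 1 model (residual degrees of freedom 6, prior 6.80). Adjusted p-values (Benjamini-Hochberg, threshold 0.05) are from this fit, over all genes tested. Fold changes are on the log2(value + 1) scale and understate those of low genes. Group means and SDs are of deposited values. Script steps were tested on simulated data.

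Members and lists were chosen with earlier results of these data known. Named genes were members that passed; in each comparison the 4 largest positive and negative differences among members at or above the family's median level, those without overlap first; the 5 highest and 5 lowest; paralog pairs; the stalk, Rps6, Rps27a, Rps4x, Rpl10, Rpl11 and Rpl5; and the 3 genes most like the members' median. Not every gene this rule takes is reported here. Rpl29 and Rpl27a at an unadjusted p under 0.05, Rps12 and other copy families were picked after their values were seen. Copies were found with blastn 2.17.0 at 95% identity or more, aligned for 150 nt or more and 50% of the shorter sequence. Alternatives covered the pseudocount, filter, scaling, trend, samples fitted, replicate block and each replicate left out. Python 3.11.15, numpy 2.4.6, pandas 2.3.3 and matplotlib 3.10.9 were used.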

Additional observations from a re-analysis of the deposited data

How the results depend on the processing

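The WT injury differences of Rps27l and Rpl12 kept their sign under every alternative run; the alternatives were not computed for single genes outside the family. The 2 members that passed in WT injury became 1 with a pseudocount of 0.1, 1 with the inferred factor out, 0 with no filter on low values, 0 with no mean-variance trend and 0 with only the groups compared in the fit. Leaving out 1 replicate at a time gave 0 to 2: both passed only without WT injured 2, Rpl12 alone passed without KO naive 2, and none passed without any of the other 8 libraries. Among settings chosen after seeing the data, the count was 0 without both WT injured 3 and KO naive 1, 0 with scaling to the members' median and 1 with copies summed. In the other comparisons 0 members passed under every alternative run.

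The members' median in KO injury was 0.0929 with equal totals and -0.39 to 0.0641 with 1 replicate left out. In WT injury it was 0.23 with the factor out, 0.24 with quantile normalization, 0.0285 with scaling to the members' median and 0.23 to 0.54 with 1 replicate left out. For naive KO against WT it was 0.047 with quantile normalization, 0.0975 with equal totals, 0.0326 with scaling to the members' median and 0.0769 to 0.54 with 1 replicate left out. For injured KO against WT it was -0.0167 with the factor out, -0.0224 with scaling to the members' median and -0.39 to -0.07 with 1 replicate left out. For the interaction it was -0.24 with quantile normalization, -0.24 with equal totals, -0.22 with the factor out, -0.25 without both libraries, -0.0759 with scaling to the members' median and -0.81 to -0.40 with 1 replicate left out. Scaling to the members' median sets these values near 0 by its construction; the cause of the others was not tested. Scaling moved the median of all genes too, which in the interaction was -0.13 as deposited and 0.17 with the factor out.

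Over all 15712 genes tested, the same replicate number did not mark libraries that deviate together (r of -0.05 to 0.04 between same-numbered libraries). With 2 libraries in a KO group, their deviations mirror each other by construction. For the members, replicate 2 had the lowest median value in each of the 4 groups. It stood at 555 FPKM in KO injured, 551 in KO naive, 560 in WT injured and 494 in WT naive neurites. With the replicate block 2 members passed in WT injury (limma adjusted p = 0.0314 for Rps27l and 0.0479 for Rpl12) and 0 in each other comparison, and the medians were -0.15 in KO injury, 0.41 in WT injury, 0.41 for naive KO against WT, -0.15 for injured KO against WT and -0.59 for the interaction. Members with an unadjusted limma p under 0.05 numbered 5, 49, 41, 6 and 47 with the block, in the same order. Without the block they numbered 2, 36, 11, 10 and 32. Groups of 2 and 3 libraries limit what could pass, and no fragment counts were used.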
